A study of Mus musculus with 20 samples.

Results

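The insulin-like growth factor (IGF) system was followed through 10 genes: the ligands Igf1 and Igf2, the receptors Igf1r and Igf2r, and the binding protein genes Igfbp2 to Igfbp7. They were taken by symbol from a table of 19505 genes, and each had 1 probe set. RNA of mouse cells, described in the labels as adipocytes obtained from adipose tissue and differentiated in vitro, was measured on 20 expression arrays in 4 groups of 5. The groups were wild type and Olfm2 knockout, each in a tissue labelled sc and in a tissue labelled g. Olfm2 encodes olfactomedin 2, a secreted glycoprotein. The labels state no strain, sex, age, diet or way of disrupting the gene. The study's title concerns Olfm2 in fat cells, the fat cell cycle and the growth of adipose tissue. Loss of Olfm2 in each tissue, and the difference between the tissues, were the comparisons made here.

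IGF-1 and IGF-2 are secreted peptides related to insulin that promote growth, survival and, in fat cell precursors, differentiation. They signal through the IGF-1 receptor, a tyrosine kinase close to the insulin receptor. The IGF-2 receptor, also the cation-independent mannose 6-phosphate receptor, does not signal in this way: it takes up IGF-2 for degradation and carries lysosomal enzymes. Binding proteins hold the ligands in the extracellular fluid, prolong their life and set how much can reach the receptors. Proteases that cut the binding proteins release the ligands again. Fat tissue is a source of IGF-1, and fat cells, precursors and macrophages can all express parts of the system. Mature mouse fat cells are known for little IGF-1 receptor and much insulin receptor.

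Sequences of the 250 bases before the start site were taken from RefSeq (build GRCm38.p6), where all 10 genes were listed. Shown for genes that moved together or against each other are Igfbp5, the binding protein gene with the largest rise in knockout g samples, and Igf2r and Igfbp7, which fell there. Capitals mark matches to the GC box (GGGCGG), the TATA box (TATAAA) and the CCAAT box (CCAAT) on either strand; adjoining GC boxes run together.
Igfbp5, chr1:72874866-72875115, minus strand: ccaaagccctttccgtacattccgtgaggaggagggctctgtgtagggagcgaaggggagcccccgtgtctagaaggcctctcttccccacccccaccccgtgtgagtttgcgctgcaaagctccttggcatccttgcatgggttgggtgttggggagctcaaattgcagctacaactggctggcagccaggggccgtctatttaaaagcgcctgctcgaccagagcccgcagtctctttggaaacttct
Igf2r, chr17:12769707-12769956, minus strand: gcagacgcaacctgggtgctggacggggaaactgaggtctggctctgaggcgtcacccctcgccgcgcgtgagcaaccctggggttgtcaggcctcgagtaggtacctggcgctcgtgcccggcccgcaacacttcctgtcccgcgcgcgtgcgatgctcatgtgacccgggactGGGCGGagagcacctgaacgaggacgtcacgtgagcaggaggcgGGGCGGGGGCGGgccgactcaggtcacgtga
Igfbp7, chr5:77408046-77408295, minus strand: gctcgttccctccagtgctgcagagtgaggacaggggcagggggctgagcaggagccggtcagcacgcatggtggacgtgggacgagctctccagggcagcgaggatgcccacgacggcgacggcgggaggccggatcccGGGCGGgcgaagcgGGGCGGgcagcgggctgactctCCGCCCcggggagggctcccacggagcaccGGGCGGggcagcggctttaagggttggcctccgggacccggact
The Igf2r window holds 3 GC boxes and the Igfbp7 window 4, with GC contents of 69.2% and 74.0%. The Igfbp5 window holds none of the 3 motifs and has a GC content of 58.8%. Over 21263 such windows of protein-coding genes the median GC content was 55.6%. A GC box was found in 42.6% of them, a TATA box in 11.6% and a CCAAT box in 35.4%. Of the other genes that changed, Igfbp4 had 1 TATA box and Igf1 had 1 CCAAT box, in windows that lie inside the annotated span of a longer transcript and are not printed. Motifs of STAT5 (TTCNNNGAA), through which growth hormone acts on Igf1, and of FOXO factors (GTAAACA) were found in 0 of the 14 windows of the 10 genes, against 6.58% and 2.62% of all windows. With motifs this rare, 0 of 14 windows does not set these genes apart, and sites beyond the 250 bases were not searched. In the RefSeq gene order Igfbp2 and Igfbp5 are neighbours transcribed towards each other, and Igfbp3 lies beside Igfbp1.

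Olfm2 itself was at or near background. Its mean signal (log2) was 3.22 ± 0.38 in knockout and 4.88 ± 0.42 in wild-type sc samples, and 3.54 ± 0.15 and 4.34 ± 0.23 in g (SD, n = 5), where negative control medians of single arrays ran from 4.45 to 4.84. Every knockout array lay below every wild-type array of its tissue, but the size of the difference cannot be read from levels this low. The series' design text gives OLFM2 for 10 g samples and PKP2 for 10 sc samples, whereas every label gives Olfm2, and the labels were followed. Pkp2, a desmosome gene, was 7.74 ± 0.60 in knockout and 7.79 ± 0.27 in wild-type sc samples, with overlap. Array medians lay between 6.12 and 6.19 (log2). The arrays also held markers of other cells. The mean of 16 hepatocyte markers was above 7 on 8 arrays (4 knockout g, 2 wild-type g and 2 knockout sc arrays), and that of 10 lymphocyte markers on 3 (sc286WT, sc317KO and sc320KO). That of 12 skeletal muscle markers was above 7 on 4 (sc286WT, sc307WT, sc317KO and sc320KO). The mean of 16 macrophage markers was 8.63 ± 0.13 (wild type) and 8.29 ± 0.21 (knockout) in sc, and 10.09 ± 0.23 and 9.23 ± 0.38 in g (SD, n = 5), and 0 of the 16 lay at or under the negative control probes in any group. The mean of 14 mature adipocyte markers was 11.46 ± 0.13, 11.56 ± 0.07, 10.87 ± 0.18 and 11.35 ± 0.08 in the same order, again with 0 at or under the negative controls. The labelled adipocytes thus carried adipocyte markers, and macrophage markers beside them, with hepatocyte, lymphocyte or skeletal muscle markers on some arrays. How such markers came to samples labelled as differentiated in vitro was not tested. In such bulk RNA, fewer cells of a type and less RNA per cell cannot be told apart.

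In knockout g samples Igfbp4 and Igfbp5 rose, and Igf1, Igf2r and Igfbp7 fell. In knockout sc samples Igfbp4 rose by a like amount, and none of the other 9 genes passed. So 5 of 10 were called in g (limma, Benjamini-Hochberg adjusted p under 0.05 over all genes), where 11.3% of all genes were called (5.01% higher and 6.27% lower), and 1 of 10 in sc, where 0.677% were (0.297% higher and 0.379% lower). The median difference of the 10 genes was 0.13 in g and 0.02 in sc, and that of all genes 0.02 and 0.01. Whether an effect differs between the tissues was tested directly: 0 of 10 genes passed in limma, where 0.0769% of all genes did (0.0410% higher and 0.0359% lower), and 2 of them, Igf2r and Igfbp5, had an unadjusted p under 0.05. The plot of single arrays shows the values behind these counts.

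**Figure D1:**
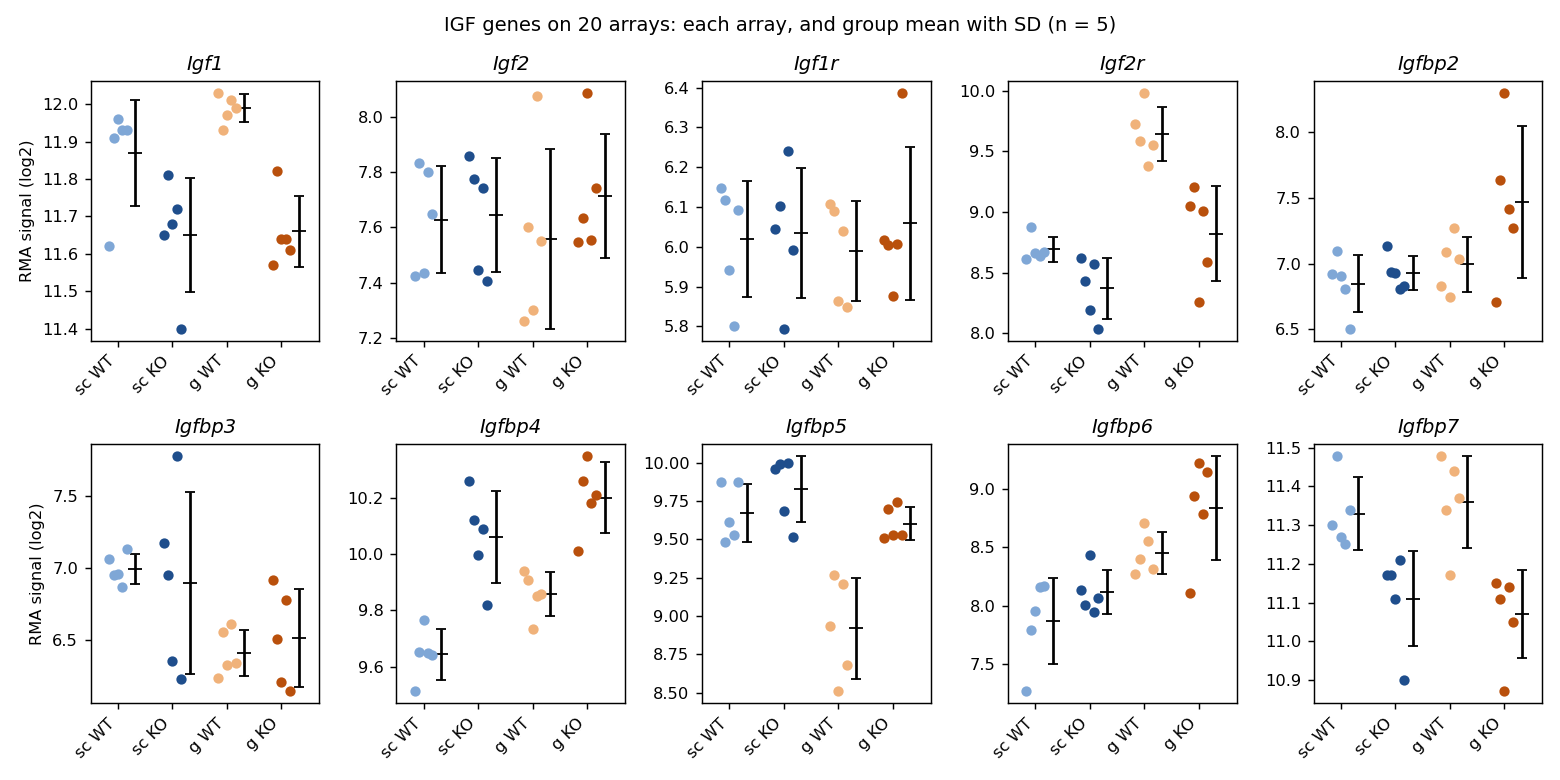
RMA signal (log2) of the 10 IGF genes on each of the 20 arrays, by group (sc and g, WT wild type and KO knockout), with the group mean and SD (n = 5) in black; each panel has its own axis. Igfbp4 is higher in knockout arrays of both tissues without overlap, and the g arrays of the genotypes do not overlap for Igf1, Igf2r, Igfbp4, Igfbp5 and Igfbp7.

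Of the ligands, Igf1 fell in knockout g samples and did not pass in sc. Values (log2 signal) are listed in the order sc286WT, sc287WT, sc307WT, sc308WT, sc309WT for wild type and sc300KO, sc306KO, sc317KO, sc318KO, sc320KO for knockout, and in g by the same title numbers. In g the wild type gave 12.03, 11.93, 11.97, 12.01 and 11.99 and the knockout 11.57, 11.82, 11.64, 11.64 and 11.61. Every wild-type array lay above every knockout array. Igf1 fell by 0.33 on the log2 scale (SE 0.08, adjusted p = 0.0137), a wild-type level 1.26-fold that of the knockout. In sc the wild type gave 11.62, 11.91, 11.96, 11.93 and 11.93 and the knockout 11.65, 11.81, 11.68, 11.72 and 11.40. Apart from sc286WT, an array with lymphocyte and skeletal muscle markers, every wild-type sc array was higher than all knockout ones. The sc difference of -0.22 did not pass (SE 0.08, adjusted p = 0.3; 95% interval -0.40 to -0.05), and it was -0.29 without sc286WT (adjusted p = 0.114). The g minus sc difference of the effect was -0.11 (95% interval -0.36 to 0.14). Igf1 is also made by liver cells, and 4 of the 5 knockout and 2 of the 5 wild-type g arrays had hepatocyte means above 7. With the hepatocyte mean as a covariate the g difference was -0.36 (adjusted p = 0.0334). Without those arrays it was -0.39, with g300 KO as the only knockout g array left.

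Igf2, the ligand of fetal growth, showed no such pattern. Its sc means were 7.63 ± 0.19 (wild type) and 7.64 ± 0.20 (knockout), and its g means 7.56 ± 0.32 and 7.71 ± 0.22 (SD, n = 5). The ranges of all groups overlapped, from 7.26 on g286 WT to 8.09 on g317 KO. The knockout difference was 0.02 in sc (95% interval -0.29 to 0.32) and 0.16 in g (-0.15 to 0.46), so these arrays do not exclude changes up to those bounds.

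The receptors behaved unlike each other. Igf1r, the signalling receptor, was dim: it lay between 5.79 and 6.39, where at least 75.7% of the negative control probes of each array were dimmer. Wild-type and knockout means were 6.02 ± 0.15 and 6.04 ± 0.16 in sc, and in g 5.99 ± 0.13 and 6.06 ± 0.19 (SD, n = 5), all within the spread of one another. The knockout differences were 0.01 in sc (95% interval -0.20 to 0.23) and 0.07 in g (-0.15 to 0.29).

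Igf2r had the widest fall of the 10 genes. In g the wild type gave 9.72, 9.59, 9.98, 9.38 and 9.56 and the knockout 9.05, 9.21, 8.26, 9.01 and 8.59. The genotypes did not overlap, and the knockout values spread over more than the wild-type ones, with g317 KO lowest. Igf2r fell by 0.82 on the log2 scale (SE 0.16, adjusted p = 0.00202; 1.77-fold higher in wild type). With the hepatocyte mean as a covariate the g difference was -0.78 (adjusted p = 0.01375). Without the arrays with hepatocyte means above 7 it was -0.66, with g300 KO as the only knockout g array left. In sc the wild type gave 8.61, 8.88, 8.67, 8.64 and 8.67 and the knockout 8.63, 8.43, 8.19, 8.57 and 8.04. The single knockout array within the wild-type range was sc300KO. The difference of -0.32 did not pass (SE 0.16, adjusted p = 0.499; 95% interval -0.65 to 0.01). The effect in g minus that in sc was -0.50 (SE 0.22, adjusted p = 0.352).

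In g, most macrophage markers moved in the same direction as Igf2r. Of 16 measured, 14 were lower and 1 was higher in knockout g samples, beside 6.27% and 5.01% of all genes. Their mean ran from 9.80 to 10.3 on wild-type g arrays and from 8.78 to 9.64 on knockout g arrays, without overlap. The lowest macrophage means among g arrays, 8.78 on g317 KO and 8.95 on g320 KO, were on the arrays with the lowest Igf2r. With the macrophage mean as a covariate the g difference of Igf2r was -0.34 (adjusted p = 0.709). As the macrophage mean separates the genotypes in g, the covariate and the knockout cannot be told apart there, and that fit called 1 gene of the whole table in g. None of the 5 calls in g passed with it, nor with the mean of the mature adipocyte markers.

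The binding protein genes gave the rises. Igfbp4, which holds IGF ligands until it is cut by pappalysin proteases, was 9.51, 9.65, 9.77, 9.65 and 9.64 in wild-type sc and 10.26, 10.12, 9.99, 10.09 and 9.82 in knockout sc samples. The lowest knockout value lay above the highest wild-type value. It rose by 0.41 (SE 0.09, adjusted p = 0.0253), or 1.33-fold. In g the wild type gave 9.94, 9.91, 9.73, 9.85 and 9.86 and the knockout 10.01, 10.26, 10.35, 10.18 and 10.21, again without overlap. The rise was 0.34 (SE 0.09, adjusted p = 0.0121), or 1.27-fold. The effects in the tissues differed by -0.07 (g minus sc, 95% interval -0.32 to 0.18).

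The sc call of Igfbp4 was close to the threshold, though its size held. It was between 0.36 and 0.47 when 1 array was left out. The adjusted p was then 0.0547 without sc286WT, 0.0675 without sc287WT, 0.066 without sc308WT, 0.0644 without sc309WT and 0.0877 without sc300KO, and under 0.05 without any of the other 5. With the hepatocyte mean as a covariate the rise was 0.34 in sc (adjusted p = 0.0853) and 0.25 in g (adjusted p = 0.104). Without the 8 arrays rich in hepatocyte markers it was 0.33 in sc (adjusted p = 0.186) and 0.17 in g (adjusted p = 0.752), where 1 knockout array, g300 KO, remained and was assumed to vary like the other groups.

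Igfbp5, a binding protein that also attaches to extracellular matrix, rose in g. The wild type gave 8.94, 9.27, 8.51, 9.21 and 8.68, and the knockout lay close together at 9.51, 9.70, 9.53, 9.75 and 9.53. All knockout arrays were above all wild-type ones. The rise was 0.68 (SE 0.14, adjusted p = 0.00294), or 1.60-fold. In sc the values were 9.87, 9.48, 9.61, 9.53 and 9.87 in wild-type and 9.96, 9.99, 9.69, 10.00 and 9.52 in knockout samples, with overlap. That difference was 0.16 (95% interval -0.13 to 0.44, adjusted p = 0.766), and the effect in g minus that in sc was 0.53 (SE 0.20, adjusted p = 0.272). Without the hepatocyte-rich arrays the g difference was 0.69, but with 1 knockout array left its adjusted p was 0.359. With the mature adipocyte mean as a covariate it was 0.28 (adjusted p = 0.699). Of 14 mature adipocyte markers 9 were higher in knockout g samples, beside 5.01% of all genes, with a list median of 0.46. Their mean ran from 10.67 to 11.09 on wild-type g arrays and from 11.22 to 11.44 on knockout g arrays. So the covariate and the knockout cannot be told apart there.

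Igfbp7, a relative of the family with weak binding of IGFs that is abundant in vessel walls, fell in g. The wild type gave 11.48, 11.34, 11.17, 11.44 and 11.37 and the knockout 11.15, 11.11, 10.87, 11.14 and 11.05. The arrays did not overlap, with 11.17 on g307 WT next to 11.15 on g300 KO. It fell by 0.29 on the log2 scale (SE 0.08, adjusted p = 0.0259). The call was lost in a fit of the g groups alone (adjusted p = 0.0642) and with the hepatocyte mean as a covariate (-0.31, adjusted p = 0.0615). The difference was -0.14 without the hepatocyte-rich arrays, with g300 KO as the only knockout g array left. The adjusted p was 0.0737 without g286 WT, 0.0575 without g308 WT, 0.0561 without g309 WT, 0.0806 without g317 KO and 0.0543 without g320 KO. In sc Igfbp7 was between 11.25 and 11.48 in wild-type and between 10.90 and 11.21 in knockout samples. These do not overlap either, but the difference of -0.21 did not pass (SE 0.08, adjusted p = 0.317). Non-overlap was seen for 2 of the 10 genes in sc and 5 in g, beside 2.94% and 10.4% of all genes.

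Igfbp2, a binding protein of fat cells and of liver, was spread widely in knockout g samples. Its values there were 6.71 on g300 KO, 7.64 on g306 KO, 8.30 on g317 KO, 7.42 on g318 KO and 7.27 on g320 KO, against 6.74 to 7.27 in wild-type g samples. Only g300 KO lay below the wild-type range. The difference of 0.47 did not pass (SE 0.20, adjusted p = 0.135), and it was 0.66 without g300 KO (adjusted p = 0.0158). The hepatocyte mean was 5.77 on g300 KO and between 7.88 and 10.6 on the other knockout g arrays, with the highest on g317 KO. Among these arrays the mesothelial mean was also lowest on g300 KO (5.92) and highest on g317 KO (7.71). As a covariate the hepatocyte mean gave a difference of 0.23 (adjusted p = 0.571) and the mesothelial mean 0.12 (adjusted p = 0.748). The part of either cell type was not tested. Without the 8 hepatocyte-rich arrays the difference was -0.25, but the only knockout g array then left was g300 KO, the lowest one. In sc the values of Igfbp2 lay between 6.50 and 7.13 in all 10 samples (difference 0.08, 95% interval -0.33 to 0.49). The hepatocyte-rich sc arrays, sc300KO (hepatocyte mean 10) and sc318KO (7.98), had Igfbp2 at 7.13 and 6.81.

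Igfbp6, which prefers IGF-2 as its ligand, followed the same arrays. The knockout g values were 8.11, 8.94, 9.23, 8.79 and 9.15, with g300 KO lowest, and those of wild type ran from 8.27 to 8.71. The difference was 0.39 (SE 0.19, adjusted p = 0.211), or 0.57 without g300 KO (adjusted p = 0.027). The mean of 10 mesothelial markers ranked these 5 arrays in the same order, at 5.92, 6.93, 7.71, 6.85 and 7.22. Wild-type g arrays were not ranked so: g307 WT had their lowest mesothelial mean (5.95) and their highest Igfbp6 (8.71). With that mean as a covariate the difference was 0.12 (adjusted p = 0.802). The hepatocyte mean was also lowest on g300 KO and highest on g317 KO, and with it the difference was 0.26 (adjusted p = 0.561).

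Igfbp3, the main carrier of IGFs in blood, varied most between arrays of the same group. Knockout sc values were 7.17, 6.95, 6.35, 7.78 and 6.23, on both sides of the wild-type range of 6.87 to 7.13. The low values belonged to sc317KO and sc320KO, which had lymphocyte means of 8.67 and 8.44. The third lymphocyte-rich array, sc286WT (8.34), had Igfbp3 at 7.06, inside the wild-type range, and the lowest g values, 6.21 on g317 KO and 6.14 on g320 KO, were on arrays with lymphocyte means of 5.55 and 5.58. The knockout difference was -0.10 in sc (95% interval -0.55 to 0.36) and 0.10 in g (-0.36 to 0.55), and without the 3 lymphocyte-rich arrays the sc difference was 0.32 (adjusted p = 0.693).

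**Figure D2:**
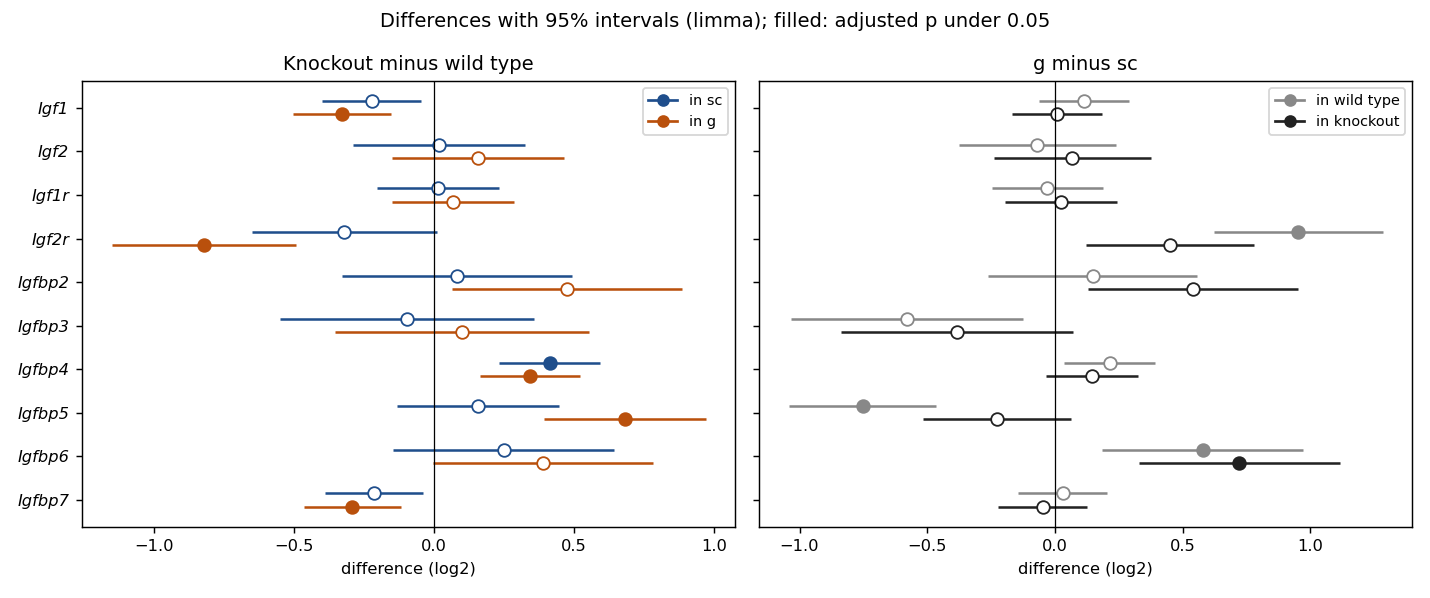
Differences (log2) of the 10 IGF genes with 95% intervals from the limma fit: knockout minus wild type in sc and g (left) and g minus sc in wild type and knockout (right); filled points have an adjusted p under 0.05. The g effect of Igf2r, -0.82, and that of Igfbp5, 0.68, are the largest knockout differences, and the same genes differ most between tissues in wild type.

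**Figure D3:**
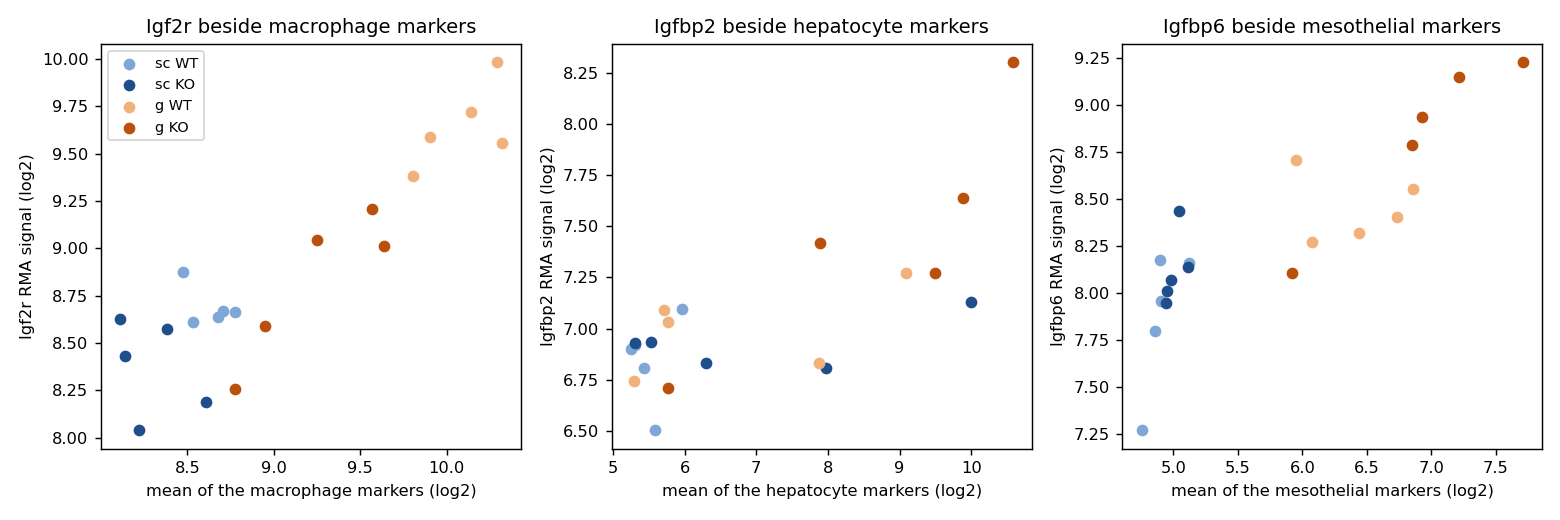
Igf2r, Igfbp2 and Igfbp6 (RMA signal, log2) on each of the 20 arrays against the mean of the macrophage, hepatocyte and mesothelial markers of the array. The wild-type g arrays hold the highest macrophage means and Igf2r values; g317 KO holds the highest hepatocyte mean with Igfbp2 at 8.30 and the highest mesothelial mean with Igfbp6 at 9.23.

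Between the tissues, wild-type g samples had more Igf2r and Igfbp6 and less Igfbp5 than wild-type sc samples. So 3 of 10 genes were called, beside 17.8% of all genes (9.30% higher and 8.48% lower), and in knockout samples 1 of 10, Igfbp6, beside 4.13% (2.87% higher and 1.27% lower). These comparisons share their groups with those of the knockout. Igf2r was 9.64 ± 0.22 in g and 8.69 ± 0.11 in sc (SD, n = 5), higher by 0.95 (SE 0.16, adjusted p = 0.000245). Igfbp5 was 8.92 ± 0.33 in g and 9.67 ± 0.19 in sc, a difference of -0.75 (SE 0.14, adjusted p = 0.000633). For these genes the arrays of the tissues did not overlap. The order of group means for Igf2r was wild-type g, knockout g, wild-type sc and knockout sc; the knockout g range, 8.26 to 9.21, held all wild-type sc values. For Igfbp5 the order was knockout sc, wild-type sc, knockout g and wild-type g, and the sc groups overlapped with each other and with knockout g. In knockout samples the tissue difference was 0.45 for Igf2r (SE 0.16, adjusted p = 0.129) and -0.23 for Igfbp5 (SE 0.14, adjusted p = 0.43). The knockout Igf2r difference passed without g317 KO (0.59, adjusted p = 0.0187).

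Cell markers moved between the tissues too: in wild type, 15 of 16 macrophage markers were higher and 13 of 14 adipocyte markers lower in g, and 7 of 10 mesothelial markers were higher. Of all genes 9.30% were higher and 8.48% lower. With the macrophage mean as a covariate the wild-type difference of Igf2r was 0.13 (adjusted p = 0.91) and that of Igfbp5 -0.48 (adjusted p = 0.591). The macrophage mean ran from 8.48 to 8.78 on wild-type sc arrays and from 9.80 to 10.3 on wild-type g arrays. It thus separates the tissues, and the covariate and the tissue cannot be told apart.

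Igfbp6 was 7.87 ± 0.37 in wild-type sc and 8.45 ± 0.18 in wild-type g samples (SD, n = 5), higher by 0.58 in g (SE 0.19, adjusted p = 0.0375), and in knockout samples 8.12 ± 0.19 and 8.84 ± 0.45, higher by 0.72 (SE 0.19, adjusted p = 0.0327). The knockout tissues overlapped through g300 KO at 8.11. Wild-type and knockout samples of sc had mesothelial means of 4.91 ± 0.13 and 5.01 ± 0.07, and those of g 6.41 ± 0.40 and 6.93 ± 0.66. In wild-type sc samples 3 of its 10 markers lay at or under the negative controls. With that mean as a covariate the differences were -0.21 in wild type (adjusted p = 0.68) and -0.29 in knockout (adjusted p = 0.734). Wild-type arrays had mesothelial means of 4.75 to 5.12 in sc and 5.95 to 6.86 in g, and knockout arrays 4.94 to 5.11 and 5.92 to 7.71. The mean thus separates the tissues, and the covariate and the tissue cannot be told apart. The wild-type call was also lost with quantile normalisation (0.54, adjusted p = 0.0653), with the hepatocyte mean (0.50, adjusted p = 0.0774), with the hepatocyte, lymphocyte and skeletal muscle means together (0.27, adjusted p = 0.574), and without the hepatocyte-rich (0.61, adjusted p = 0.0639) or lymphocyte-rich arrays (0.43, adjusted p = 0.0906). When 1 array was left out, the wild-type call remained without sc308WT (0.65), sc309WT (0.66) or g286 WT (0.63). It was lost without sc286WT (0.43, adjusted p = 0.0976), sc287WT (0.56, adjusted p = 0.0741), sc307WT (0.60, adjusted p = 0.0582), g287 WT (0.59, adjusted p = 0.0547), g307 WT (0.52, adjusted p = 0.101), g308 WT (0.55, adjusted p = 0.0737) or g309 WT (0.61, adjusted p = 0.051). The knockout call remained without sc317KO (0.80) or g300 KO (0.91) and was lost without any of the other 8 arrays, with differences of 0.63 to 0.74.

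Igfbp3 was 6.99 ± 0.10 in wild-type sc and 6.41 ± 0.16 in wild-type g samples (SD, n = 5) without overlap, a difference of -0.58 (SE 0.22, adjusted p = 0.0714). It passed in a fit of the wild-type groups alone (adjusted p = 0.00105), with array weights (-0.59, adjusted p = 0.0177), and without the hepatocyte-rich (-0.59, adjusted p = 0.0226) or lymphocyte-rich arrays (-0.56, adjusted p = 0.0228). The difference was -0.20 with the mesothelial mean (adjusted p = 0.795), which separates the tissues. With the mature adipocyte mean, which also separates them, it was -0.24 (adjusted p = 0.873). With the hepatocyte, lymphocyte and skeletal muscle means together it was -0.35 (adjusted p = 0.481). It passed in 0 of the 10 fits with 1 array left out, at -0.63 to -0.54 (adjusted p 0.0768 to 0.139). Igfbp4 was 0.21 higher in wild-type g samples (SE 0.09, adjusted p = 0.0923). The arrays of the tissues did not overlap for 4 of 10 genes in wild type and 0 in knockout samples, beside 16.1% and 4.26% of all genes. The other tissue differences were Igf1 0.11 (95% interval -0.06 to 0.29), Igf2 -0.07 (-0.38 to 0.24), Igf1r -0.03 (-0.25 to 0.19), Igfbp2 0.15 (-0.26 to 0.56) and Igfbp7 0.03 (-0.14 to 0.20) in wild type.

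The proteases that cut binding proteins, and their inhibitors, were read from a list of 14 genes, 12 of them measured. Stc2, stanniocalcin 2, an inhibitor of pappalysins, rose in both tissues: from 6.63 ± 0.31 to 7.48 ± 0.36 in sc (0.85, SE 0.16, adjusted p = 0.0153) and from 6.35 ± 0.08 to 7.56 ± 0.26 in g (1.21, SE 0.16, adjusted p = 0.000142; SD, n = 5). Pappa, the pappalysin that cuts the Igfbp4 protein, was between 4.40 and 4.90 as a group mean, near the negative control medians of 4.45 to 4.84. The matrix proteases Mmp2 (-1.09, SE 0.15, adjusted p = 0.000158) and Mmp14 (-0.89, SE 0.14, adjusted p = 0.000445) and urokinase, Plau (-0.72, SE 0.15, adjusted p = 0.00351), fell in g. So 1 of 12 was higher and 0 lower in sc, where 0.297% of all genes were higher and 0.379% lower. In g 1 was higher and 3 lower, where 5.01% of all genes were higher and 6.27% lower.

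Of 9 measured genes of the wider system 1 was called in g, Insr, the insulin receptor. It rose by 0.31 (SE 0.09, adjusted p = 0.0334), where 5.01% of all genes were higher and 6.27% lower. Igfals, which holds IGFs and Igfbp3 in a circulating complex, was not called in sc (-0.55, SE 0.35) or g (0.33, SE 0.35). Igfbp1 had group means of 4.31 to 4.49, at the level of the negative controls. Of 6 growth hormone axis genes, 0 were called in limma in either tissue, and 0 in sc and 2 in g had an unadjusted p under 0.05. One of these was the receptor Ghr in g (0.25, SE 0.09, adjusted p = 0.0605).

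Of 14 receptor-proximal genes 0 were called in sc, beside 0.677% of all genes; in g 2 rose and 3 fell, beside 5.01% and 6.27% of all genes. The phosphatase Ptpn11, which passes receptor signals on, rose by 0.57 and the fat cell adaptor Irs3 by 0.55. The receptor inhibitor Grb14 (-0.78), the phosphatase Ptpn1 (-0.63), which switches insulin and IGF receptors off, and the signalling inhibitor Socs3 (-0.52) fell. Of 20 genes of the PI3K, AKT and FOXO branch 3 rose in g, the translation repressor Eif4ebp1 (1.06, SE 0.12, adjusted p = 4.45e-05), the transcription factor Foxo1 (0.65) and the kinase Akt2 (0.52), and 0 fell. That is 3 of 20 called in g beside 11.3% of all genes, and 0 were called in sc. In limma's sc comparison 2 of the 14 and 7 of the 20 had an unadjusted p under 0.05. They included the adaptor Irs1 (0.46, SE 0.19, adjusted p = 0.356), Eif4ebp1 (0.39, SE 0.12, adjusted p = 0.186) and Foxo1 (0.32, SE 0.11, adjusted p = 0.237). The share of all genes with such an unadjusted p was not computed, so these counts cannot be set beside it.

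Igf2 and Igf2r are imprinted genes, and 13 measured genes of an imprinted network were listed with them. In g 4 rose, the zinc finger factor Plagl1 (1.45, SE 0.23, adjusted p = 0.000451), the retrotransposon-derived Peg10 (1.04), the sarcoglycan Sgce (0.62) and necdin, Ndn (0.49), and the matrix proteoglycan Dcn fell (-0.28). That is 4 of 13 higher and 1 lower, beside 5.01% and 6.27% of all genes. Plagl1, a known activator of Igf2, thus rose where Igf2 was not called. In sc 0 of the 13 imprinted and 0 of the 13 sorting genes were called by limma, with 1 of each at an unadjusted p under 0.05. Of 13 measured genes of mannose 6-phosphate sorting, the other task of the Igf2r protein, 6 fell and 0 rose in g, beside 6.27% and 5.01% of all genes. They were the small receptor M6pr (-0.31), the adaptor Gga3 (-0.39) and the lysosomal enzymes Hexa (-0.71), Ctsz (-0.67), Man2b1 (-0.43) and Ctsb (-0.39). Their list median was -0.39 in g and -0.09 in sc, beside 0.02 and 0.01 for all genes. In wild type 7 of these 13 were higher in g than in sc and 0 lower, beside 9.30% and 8.48% of all genes, and 15 of 16 macrophage markers were higher. The part of macrophages in this list was not tested.

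**Figure D4:**
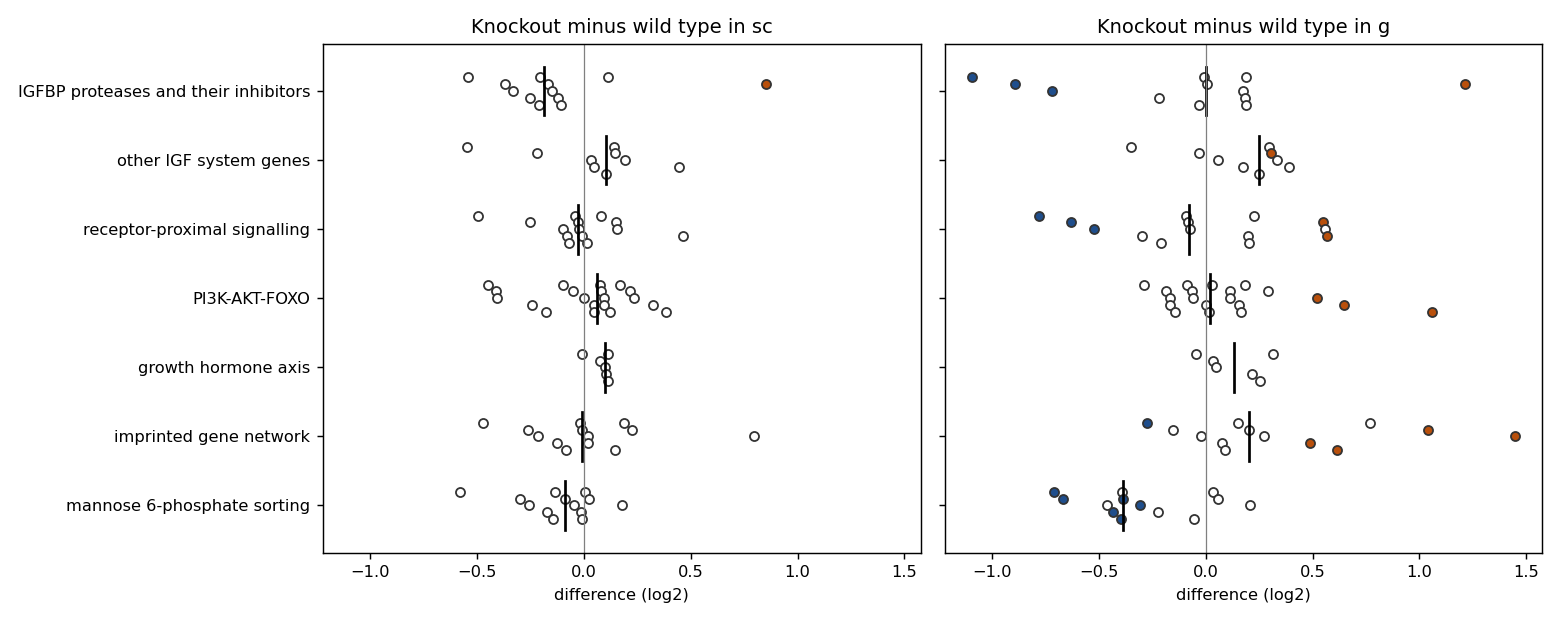
Knockout minus wild type (log2) in sc and g for the measured genes of 7 lists around the IGF system; each point is a gene, filled where its adjusted p is under 0.05 (orange higher, blue lower), and black lines are list medians. In sc the only filled point is Stc2 at 0.85; in g mannose 6-phosphate sorting genes have a median of -0.39.

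The genes whose values over the 20 arrays were most like those of each IGF gene were found by Pearson's r, as a description of arrays that share tissue, genotype and cell makeup. Igf2r was followed most closely, by Ptchd1 (r = 0.978), the endosome protein Ehd4 (0.978) and the actin regulator Coro1c (0.974). Igfbp5 was nearest to the zinc finger factor Hivep2 (0.933) and the lipid antigen presenter Cd1d1 (0.919), and Igfbp4 to Tlcd2 (0.916) and Parp16 (0.911). Igf1 was nearest to Ssc5d (0.891) and the matrix proteoglycan Lum (0.89), and Igfbp7 to S100a8 (0.885). Igfbp2 was nearest to Keg1 (0.893) and Abcg8 (0.887), a sterol transporter of liver, with the complement gene C8b also among its nearest 5 (0.868). Igfbp6 was nearest to Krt19 (0.869), which is in the mesothelial list used here. Igf1r (nearest r 0.783) and Igf2 (0.847) had the loosest neighbours.

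Among the 10 genes themselves, Igf1 and Igfbp7 ran together over the arrays (r = 0.765) and Igf2r ran against Igfbp5 (r = -0.758). After the group means were taken out these values were 0.407 and 0.0488, so within groups Igf2r and Igfbp5 did not run against each other. Igf1 and Igfbp4, with r = -0.379 over all arrays, had r = 0.642 within groups. The arrays with more Igf1 in a group tended to have more Igfbp4. Between the genotypes in g, the knockout group had less Igf1 and more Igfbp4 than the wild type. The lowest values of both genes in their groups were on sc286WT, sc320KO and g300 KO. Of these, sc286WT and sc320KO carried lymphocyte and skeletal muscle markers, and the within-group r without them was not computed.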

How the data were processed

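Per the submitters' processing notes RMA and limma were used by the authors; the deposited table holds log2 values, 1 per probe set and array, and names no version or genome build. Labelling used the GeneChip WT PLUS kit, per the labels' protocols. Of 28846 probe sets 6640 controls were left out. Of the rest 19572 had 1 gene symbol in the platform annotation, and 2634 without exactly 1 symbol were not used. The probe set with the highest mean was kept per gene, which left 19505 genes.

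In R 4.3.3, limma 3.58.1 was fitted with a mean per group (residual degrees of freedom 16), without covariates, for 5 comparisons. P-values are two-sided and moderated, adjusted over all genes (Benjamini-Hochberg); called means under 0.05. SE and 95% intervals are limma's. For an unadjusted p under 0.05 the share of all genes was not computed, so counts at that threshold cannot be set beside it. The number of arrays limits the precision, and since no label says that cultures were separate, p-values reflect only how much these samples vary, which may be technical.

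Genes and lists were chosen with earlier results of these data known. All 10 IGF genes are described; of each pathway list, called genes, at most 6, are named, and Pkp2, Igfbp1, Igfals, Pappa, Ghr and Irs1 were named after their values were seen. Likeness was taken over the 5 nearest genes, passing over predicted genes and chemoreceptor genes. The 9 marker lists gave a mean per array. Title numbers occur once per tissue. Residuals of the same number in sc and g correlated between -0.461 and 0.142 (median 0.0111), so samples were not paired. On simulated data with 200 of 19505 genes changed in knockout g arrays, the fit recovered 54% at a fold of 1.5 and 93.5% at a fold of 2, and 0 at a fold of 1.25. The simulated noise was normal and independent between genes. In the data 2200 genes were called in g, which loosens the adjusted threshold, so these rates do not carry over. Alternatives were other normalisation, moderation, filter, probe rule, groups, block, weights, marker means as covariates and left-out arrays.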

Additional observations from a re-analysis of the deposited data

Results flagged for a closer look

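Of 40 groups of 5 arrays (10 genes in 4 groups), 3 held an array far from the rest of its group; chance flags about 1 in 20. Igf1 was 11.62 on sc286WT, the lowest wild-type sc value, with the next at 11.91. Igf2r was 8.88 on sc287WT, the highest wild-type sc value, with the next at 8.67. Igf1r was 6.39 on g320 KO, the highest knockout g value, with the next at 6.02.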

How the results depend on the processing

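The number of IGF genes called was recomputed under 14 alternatives and with each array left out. In sc it fell from 1 to 0 in a fit of the compared groups alone, with the hepatocyte, macrophage or 3 cell type means as covariates, and without the hepatocyte-rich arrays. In g it was 4 in a fit of the compared groups alone, where Igfbp7 was lost, and fell from 5 to 3 with the hepatocyte, the mesothelial or the 3 means as covariates (Igf1, Igf2r and Igfbp5 remained) and to 0 with the macrophage or adipocyte mean or without the hepatocyte-rich arrays, which leaves 1 knockout g array. The wild-type tissue count went from 3 to 5 with array weights and to 0 with the macrophage or adipocyte mean, each of which separates the tissues. The knockout tissue count went from 1 to 2 without the lymphocyte-rich arrays and to 0 with quantile normalisation, the compared groups alone, the hepatocyte, macrophage, adipocyte or 3 means, or without the hepatocyte-rich arrays. With 1 array left out these counts ranged from 0 to 1, 4 to 7, 2 to 3 and 0 to 2, and the count for the difference of effects was 0 throughout.

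Directions turned in 4 values that passed in either fit. With the mesothelial mean the tissue difference of Igfbp6 was -0.21 in wild type and -0.29 in knockout, and that of Igfbp2 in wild type -0.90. That mean separates the tissues, so the covariate and the tissue cannot be told apart. Without the hepatocyte-rich arrays the tissue difference of Igfbp6 in knockout was -0.063, with g300 KO as the only knockout g array left. The cause was not tested. Of all 1290 recomputed differences, a further 103 changed sign while passing in neither fit. The lymphocyte-rich, mesothelial and adipocyte alternatives were chosen after seeing the data.

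With the title number as a replicate block (consensus correlation 0.0863) the counts were 1, 5, 0, 4 and 1 for sc, g, the difference, wild-type and knockout tissues, where Igfbp3 joined in wild type (-0.58, adjusted p = 0.0493). Igfbp2 differed by 0.73 between knockout tissues without g300 KO. Dim probe sets limit Igf1r, Pappa and Igfbp1.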

Other observations

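Markers of several cell types were read beside the IGF genes. In knockout g samples 4 of 10 fibroblast and preadipocyte markers were lower and 0 higher (median -0.29), 1 of 11 endothelial markers was higher (median 0.24), and 9 of 14 mature adipocyte markers were higher (median 0.46). Of all genes 6.27% were lower and 5.01% higher there. In sc 1 of 10 fibroblast markers was lower, beside 0.379% of all genes. Hepatocyte (16 measured), lymphocyte (10), skeletal muscle (12), mesothelial (10) and smooth muscle markers (10) had 0 calls by genotype in limma in either tissue. All 16 hepatocyte markers were above 0 in both, with medians of 2.02 in g and 1.56 in sc. These means varied between arrays of a group: the hepatocyte mean ran from 5.77 to 10.58 in knockout g samples. In wild type 5 of 11 endothelial and 4 of 10 smooth muscle markers were lower in g than in sc, beside 8.48% of all genes. In g an unadjusted p under 0.05 was found for 8 of the hepatocyte, 5 of the mesothelial and 2 of the smooth muscle markers, and in sc for 1, 1 and 2; for lymphocyte and skeletal muscle markers it was 0 in both.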
